A study of Mus musculus with 4 samples.

Results

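Class I olfactory receptors were followed in nasal mucosa of 4 groups of mice through the genes named Olfr543 to Olfr700. A gene entered if an array probe set was assigned to it alone, and the probe set with the highest mean over the arrays stood for a gene with several. This gave 114 genes of 19938 in the table. Every one of the 114 lies on chromosome 7 in RefSeq (GRCm38.p6). RefSeq lists 124 protein-coding genes and 31 pseudogenes in this number range, and of the 10 coding genes not measured on their own, 8 were present only on probe sets shared with a relative.

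Olfactory neurons each express a single odorant receptor, a G protein-coupled receptor of the ciliary membrane that raises cyclic AMP and opens a cation channel. Mammalian receptors fall into class I, which resembles the receptors of fish and includes many receptors for carboxylic acids and other water-soluble odorants, and the larger class II. In mice the class I genes form a single large cluster, and their neurons lie mainly in the dorsal zone of the olfactory epithelium. The mouse family names MOR1 to MOR42 are those of class I.

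The tissue was mucosa lifted from the septum and turbinates of 8-week-old mice. The titles of the wild-type samples write the strain as C56BL/6, and those of the samples labelled Duox2-/- give no strain. The groups were mice labelled Duox2-/- given flagellin, mice labelled Duox2-/- given PBS, wild-type mice given flagellin and wild-type mice given PBS. Duox2 encodes an epithelial oxidase that produces hydrogen peroxide, and flagellin is the protein of the bacterial flagellum. Flagellin was used at 5 ug/ml. Each nostril received 25 ul, and tissue was taken at 4 h. Each group had 1 array, so no difference between 2 arrays has a replicate check, and the number of arrays limits the precision of every value. The number of mice behind an array and the making of the Duox2 allele are not given in the sources used here. Duox2 itself had log2 signals of 5.50 and 5.23 in the flagellin and PBS arrays labelled Duox2-/-, and 5.12 and 4.95 in the wild-type flagellin and PBS arrays. It was thus not lower in the arrays labelled Duox2-/-. All 4 signals lie below the array medians of 6.48 to 6.56, so this dim probe set says little about the knockout. Over all genes with a 4-array mean of 5 to 6, the array labelled Duox2-/- was higher by a median of 0.25 under PBS and 0.34 after flagellin. The genotype is called by its label throughout.

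The label class I held for most genes of the number range. By their RefSeq synonyms 107 of the 114 carry a family name from MOR1 to MOR42, spread over 40 families. The other 7 do not: Olfr693, Olfr695, Olfr697, Olfr698, Olfr699 and Olfr700 are named in family MOR283 and Olfr652 in MOR318. The 6 MOR283 genes are the last 6 in order along the chromosome. Olfr605 carries both a MOR24 and a MOR202 name and was counted with the 107.

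RefSeq start regions are shown for 3 genes that recur below, since they hold the letters bound by homeodomain factors such as Lhx2, which acts in receptor gene choice. RefSeq held a window for 97 of the 114 genes. In 71 of these windows the annotated start was a start codon, so most of them lie before the coding sequence and not before a mapped transcription start. The stretches are from windows without that feature, 60 bases each from GRCm38.p6, read 5′ to 3′ on the gene's strand, with TAATTA or TAATTG (or CAATTA, its other strand) in capitals. The capitals end 91 bases before the annotated start in Olfr544, 51 in Olfr570 and 172 in Olfr693.
Olfr544 (chr7:102488372-102488431, minus strand): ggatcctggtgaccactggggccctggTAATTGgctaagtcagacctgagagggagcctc
Olfr570 (chr7:102900258-102900317, plus strand): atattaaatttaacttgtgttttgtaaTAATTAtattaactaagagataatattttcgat
Olfr693 (chr7:106678631-106678690, minus strand): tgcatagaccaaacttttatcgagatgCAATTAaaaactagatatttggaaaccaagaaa
On both strands of the 250 bases before the annotated start, TAATTA was present in 13.4% of the 97 windows, 18.7% of 845 windows of other olfactory receptor genes and 4.90% of 27025 windows of all genes. Of the windows of all genes only 6.75% begin at a start codon, so they are mostly regions of another kind. TAATTG was present in 22.7%, 22.6% and 7.34% of the same sets. Either was present in 34.0%, 37.0% and 11.5%, so the share was close to that of the other receptors. A match is a description of the letters and not of a bound site.

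The receptor genes gave moderate signal on all 4 arrays. Their median log2 signal was 7.19 and 6.95 in the flagellin and PBS arrays labelled Duox2-/-, and 7.03 and 7.14 in the wild-type flagellin and PBS arrays. Above the median of all probe sets of the array were 80 of 114 genes in flagellin labelled Duox2-/-, 77 in PBS labelled Duox2-/-, 76 in wild-type flagellin and 79 in wild-type PBS. The other olfactory receptor genes, 899 in number, were dimmer, with medians of 5.99, 5.79, 5.61 and 5.13 in those arrays. Signals of different probe sets depend on their sequences, so the brightness of a gene says little about its RNA relative to another gene. A mean over the 4 arrays at or above 6.52, the median of all values, was reached by 78 of the 114 genes. Just inside that level lay Olfr676 at 6.54, and just outside it Olfr689 at 6.50.

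**Figure D1:**
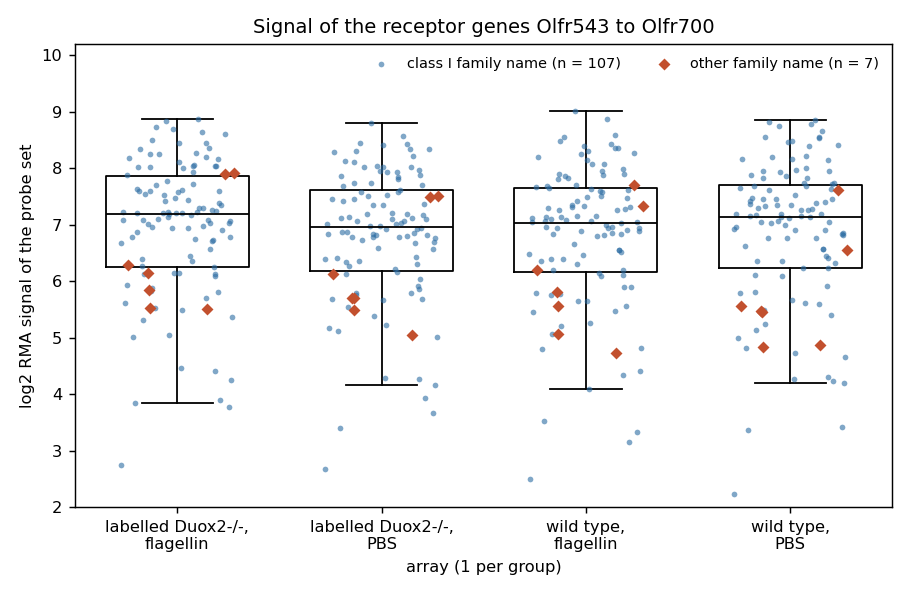
Log2 RMA signal (vertical axis) of each of the 114 genes in each array (horizontal axis), with boxes for the quartiles and median and whiskers to 1.5 box lengths. The 4 medians lie between 6.95 and 7.19.

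The 10 brightest probe sets spanned at most 0.52 on the log2 scale over the 4 arrays. Olfr566 had log2 signals of 8.84 and 8.81 in the flagellin and PBS arrays labelled Duox2-/-, and 9.01 and 8.75 in the wild-type flagellin and PBS arrays. For Olfr615 these were 8.87 and 8.56 in the arrays labelled Duox2-/-, and 8.87 and 8.78 in wild type. Olfr549, of family MOR31, had 8.73 and 8.44 in the arrays labelled Duox2-/-, and 8.55 and 8.82 in wild type. The genotypes overlapped in all 3 genes, and the order of the arrays differed among them. The other 7 of the 10 brightest were Olfr633, Olfr578, Olfr570, Olfr586, Olfr594, Olfr592 and Olfr610, and their 4-array means ran from 8.34 to 8.59. Over all 114 genes the median span between the highest and the lowest array was 0.38 on the log2 scale, against 0.80 for the other olfactory receptor genes and 0.39 for all genes. Only 5 of the 114 spanned 2-fold or more (4.39%, against 35.4% of the other receptors and 4.79% of all genes): Olfr693, Olfr559, Olfr624, Olfr684 and Olfr645, of which Olfr624 was chosen after its values were seen.

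The 5 receptors with known ligands or other known uses spanned from 0.115 to 0.464 over the arrays. Olfr558 corresponds to human OR51E1, a receptor for short fatty acids that is also found outside the nose, and had 6.57 and 6.68 in the flagellin and PBS arrays labelled Duox2-/-, and 6.55 and 6.57 in wild type. Olfr691, of the same MOR31 family as Olfr690, had 7.61 and 7.53 in the arrays labelled Duox2-/-, and 7.64 and 7.52 in wild type. Both stayed within 0.13 on the log2 scale over the 4 arrays. Olfr544, a receptor for azelaic acid whose start region is shown above, had 7.02 and 6.58 in the flagellin and PBS arrays labelled Duox2-/-, and 7.04 and 6.83 in wild type. In both genotypes the flagellin array was the higher. Olfr690, with the alias Ors18, one of a set cloned from single neurons that answered aliphatic acids or alcohols, had 8.25 and 8.02 in the arrays labelled Duox2-/-, and 7.83 and 8.19 in wild type. Its flagellin array was the higher in mice labelled Duox2-/- and the lower in wild type. Olfr692, known also from the vomeronasal organ, had 7.09 and 6.87 in the arrays labelled Duox2-/-, and 7.11 and 7.18 in wild type.

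Comparing flagellin with PBS in the mice labelled Duox2-/- asks how the receptor genes respond in mice labelled as lacking the oxidase. Most were slightly higher after flagellin: 95 of 114 had a difference above 0, against 48.7% of all genes, and the median log2 difference was 0.18, against -0.01 over all genes. With the arrays set to a common median of the mature olfactory neuron markers described below, the median was -0.14 with 25 genes above 0, and that of all genes -0.33. None reached 2-fold in either direction, a size passed by 0.221% of all genes upward and by 0.466% downward. At 1.5-fold, 2 genes were higher and 2 lower. Among genes at or above the median signal, the highest differences belonged to Olfr599 (0.66), Olfr655 (0.66), Olfr545 (0.52), Olfr622 (0.45) and Olfr670 (0.45). Olfr599 had 8.70 in the flagellin and 8.03 in the PBS array labelled Duox2-/-, and 8.25 and 7.87 in the wild-type flagellin and PBS arrays, so flagellin was the higher in both genotypes. The lowest differences were those of Olfr611 (-0.66), Olfr644 (-0.47), Olfr605 (-0.16), Olfr570 (-0.14) and Olfr675 (-0.12).

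In wild type the same comparison leaned the other way. The flagellin array was above the PBS array for 43 of 114 genes, against 52.1% of all genes, with a median log2 difference of -0.06, against 0.01 over all genes. At least 2-fold higher were 0 genes and at least 2-fold lower 1, where the shares over all genes were 0.838% and 0.0552%. The single gene was Olfr624, chosen after its values were seen, with 3.15 in the wild-type flagellin and 4.24 in the wild-type PBS array. Its 4-array mean of 3.81 is far below the median signal, so this difference is uncertain. Among brighter genes the lowest differences were those of Olfr623 (-0.55), Olfr677 (-0.49), Olfr639 (-0.47), Olfr605 (-0.46) and Olfr683 (-0.45). The highest was that of Olfr693 (0.77), a MOR283 gene, followed by Olfr599 (0.38), Olfr667 (0.25), Olfr566 (0.25) and Olfr607 (0.22).

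The difference of the responses, labelled Duox2-/- minus wild type, was above 0 for 87 of 114 genes, against 47.1% of all genes and 39.7% of the other olfactory receptors. Its median was 0.23, against -0.02 over all genes and -0.11 over the other receptors. The sign was not particular to the 114. The 13 trace amine-associated receptors, described below, had a median of 0.32 with 10 above 0. For 16 other receptors with a 4-array mean of 8 and over it was 0.30, against 0.25 for 18 class I genes. In the dimmer ranges the medians of the other receptors lay from -0.15 to -0.07. With the neuron marker scaling the median of the 114 was 0.0789, with 69 genes above 0. In 56 genes the flagellin array was the higher in mice labelled Duox2-/- and the lower in wild type (49.1%, against 22.1% of all genes and 13.1% of the other receptors), and in 4 genes the reverse held. With the neuron marker scaling 19 genes had this pattern (16.7%, against 6.84% of all genes). Both responses were above 0 in 39 genes and below 0 in 15. The 2 responses share no array, and across the 114 genes, which share arrays and scaling and are no replicates, they correlated with r = 0.22. Over the other receptors r was 0.42.

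**Figure D2:**
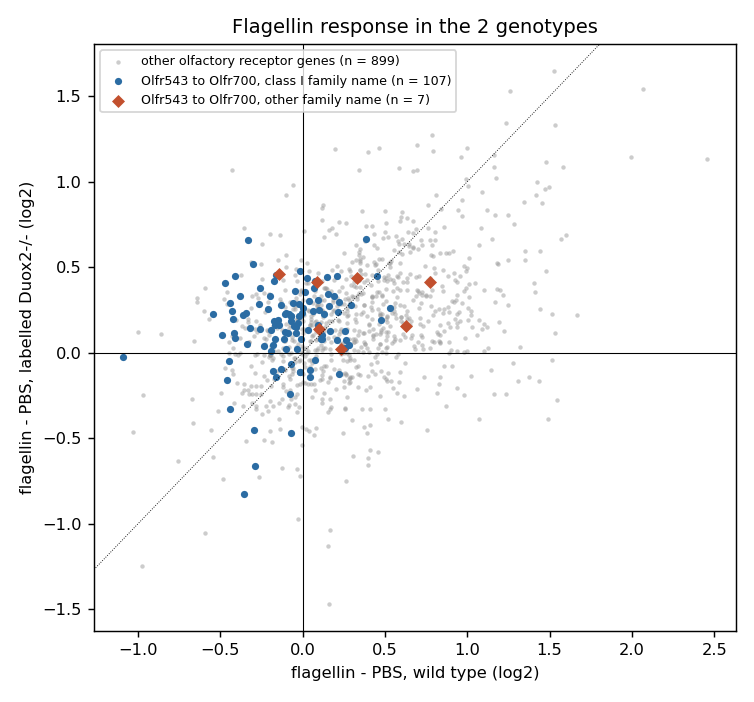
Flagellin minus PBS (log2) in wild type on the horizontal axis and in mice labelled Duox2-/- on the vertical axis, 1 point per gene, with the line of equal responses dotted. Of the 114 genes 56 lie above 0 on the vertical and below 0 on the horizontal axis in the deposited scaling, while 59.1% of the other olfactory receptors lie above 0 on both.

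Olfr655, of family MOR38, had the widest difference of responses among the brighter genes, at 0.99. It had 8.27 in flagellin and 7.62 in PBS labelled Duox2-/-, and 8.07 in wild-type flagellin and 8.40 in wild-type PBS, so that the PBS array labelled Duox2-/- was the lowest and the wild-type PBS array the highest. Next came Olfr639 at 0.88, Olfr670 at 0.86, Olfr545 at 0.82 and Olfr623 at 0.77. Olfr545, with the alias S50 and from the same set as Olfr690, had 7.64 and 7.12 in the flagellin and PBS arrays labelled Duox2-/-, and 7.06 and 7.36 in wild type. At the other end were Olfr644 (-0.40), Olfr611 (-0.38), Olfr693 (-0.36), Olfr675 (-0.34) and Olfr566 (-0.23). At least 2-fold above 0 was 1 gene, the dim Olfr624 at 1.07, where 0.211% of all genes were, and 0 were as far below 0, where 1.38% of all genes were.

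The PBS arrays show the genotypes without flagellin. They also enter the flagellin responses above, 1 array in each. The array labelled Duox2-/- was above wild type for 41 of 114 genes, against 56.3% of all genes, and the median log2 difference was -0.08, against 0.04 over all genes. It was -0.17 with 31 genes above 0 after centring the arrays on their medians, and -0.14 with the neuron marker scaling. No gene reached 2-fold, a size passed by 1.34% of all genes upward and by 0.226% downward. The highest differences among brighter genes were those of Olfr693 (0.96), Olfr550 (0.48), Olfr669 (0.44), Olfr611 (0.44) and Olfr616 (0.28). The lowest were those of Olfr655 (-0.78), Olfr591 (-0.71), Olfr640 (-0.64), Olfr654 (-0.64) and Olfr671 (-0.54). Olfr654 and Olfr655, the 2 genes of family MOR38, were both among them.

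After flagellin the array labelled Duox2-/- was above wild type for 84 of 114 genes, against 50.6% of all genes, with a median log2 difference of 0.16, against 0.01, but with the neuron marker scaling for 48 with a median of -0.0498, against -0.20. This comparison shares an array with each of the responses. At least 2-fold higher was 1 gene and lower 0, where 0.476% and 1.18% of all genes passed. With each of the other 4 scalings 0 genes were 2-fold higher. The gene, Olfr645 of MOR13, lay at the limit with a log2 difference of 1.001, and had 6.91 and 6.82 in the flagellin and PBS arrays labelled Duox2-/-, and 5.91 and 6.32 in wild type. Both arrays labelled Duox2-/- were above both wild-type arrays. Of the brighter genes Olfr550 (0.89), Olfr670 (0.76), Olfr639 (0.71), Olfr622 (0.69) and Olfr669 (0.68) were the highest, and Olfr644 (-0.93), Olfr591 (-0.41), Olfr570 (-0.40), Olfr640 (-0.24) and Olfr638 (-0.19) the lowest. Olfr644, a MOR13 gene as well, had 7.48 and 7.95 in the arrays labelled Duox2-/-, and 8.40 and 8.47 in wild type. Neighbours of 1 family thus stood at opposite ends of this comparison.

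The one test the design allows was a limma fit of additive effects, in which flagellin moves both genotypes alike. Its single residual degree of freedom is taken up by the difference of the responses, which it therefore does not test. For flagellin it called 0 of the 114 genes at an adjusted p of at most 0.05, where 0.261% of all genes were called higher and 0.0401% lower. The lowest adjusted p was 0.228, and 13 of the 114 had an unadjusted p under 0.05 (11.4%, against 7.09% of all genes). Of the other olfactory receptors the same fit called 37 of 899 higher and 1 lower.

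For genotype the model called 11 of the 114, a share of 9.65% against 9.42% of all genes. Of these 7 were higher in the arrays labelled Duox2-/- (6.14%, against 7.03% of all genes) and 4 lower (3.51%, against 2.39%). Olfr693 was higher by 0.77 ± 0.15 (SE, limma adjusted p = 0.0224), Olfr645 by 0.75 ± 0.16 (0.0270) and Olfr550 by 0.68 ± 0.15 (0.0301). Also higher were Olfr571 at 0.59 (adjusted p = 0.0348), Olfr669 at 0.56 (0.0403), Olfr699 at 0.56 (0.0404) and Olfr619 at 0.52 (0.0450). Lower were Olfr644 at -0.73 ± 0.15 (limma adjusted p = 0.0270), Olfr684 at -0.65 (0.0284), Olfr559 at -0.64 (0.0374) and Olfr591 at -0.56 (0.0425). Centring the arrays on their medians left 2 higher and 4 lower, and quantile renormalisation 1 higher and 1 lower. After cyclic loess scaling 0 of the 114 were called, with 19 at an unadjusted p under 0.05, and 28 of all genes were. Of the other receptors 325 of 899 were called in the values as deposited, 313 of them higher.

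Olfr559, of family MOR11, had 5.53 and 6.36 in the flagellin and PBS arrays labelled Duox2-/-, and 6.40 and 6.76 in wild type. Its span of 1.23 was set mainly by the flagellin array labelled Duox2-/-, which was the lowest. Olfr684 had 5.05 and 5.38 in the arrays labelled Duox2-/-, and 5.64 and 6.09 in wild type, where both arrays were the higher. Both genes lie below the median signal. So do Olfr571, Olfr619, Olfr645 and Olfr699 among the genes called higher. Olfr571 and Olfr699 have 4-array means between 5 and 6. In that range the array labelled Duox2-/- was higher by a median of 0.25 under PBS and 0.34 after flagellin over all genes.

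The genes without a class I family name stood higher than the rest of the number range in several comparisons. Under PBS 6 of the 7 were higher in the array labelled Duox2-/-, with a median of 0.25, while the median of the 107 was -0.10 with 35 above 0. After flagellin in wild type 6 of the 7 were above 0 with a median of 0.23, against -0.07 for the 107. The 7 were also dimmer, with array medians from 5.48 to 6.14, against 6.97 to 7.20 for the 107. The 10 class I genes with a mean signal between 5 and 6 had a PBS genotype median of 0.24, close to that of the 7. For flagellin in wild type the median of these 10 was -0.01, below that of the 7. Olfr693, whose start region is shown above, had 7.92 and 7.51 in the flagellin and PBS arrays labelled Duox2-/-, and 7.33 and 6.56 in wild type, and the wild-type PBS array stood lowest by 0.77. The difference between the 7 and the 107 was not tested, and neither was the part of signal level in it.

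Against the other olfactory receptor genes the 114 differed most in the comparisons that use the wild-type PBS array. The other receptors had a median log2 difference of 0.31 for flagellin in wild type and of 0.45 for the PBS arrays, with 79 and 135 of 899 at least 2-fold higher. After flagellin the genotype difference had a median of 0.32, and the flagellin response of mice labelled Duox2-/- one of 0.17, close to the 0.18 of the 114. The wild-type PBS array was the lowest of the 4 for 68.6% of the other receptors and for 18.4% of the 114. For 59 of the 114 the flagellin array labelled Duox2-/- was the highest (51.8%, against 60.8% of the other receptors and 35.9% of all genes). These are descriptions of 4 arrays, without a test of the difference between the gene sets.

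**Figure D3:**
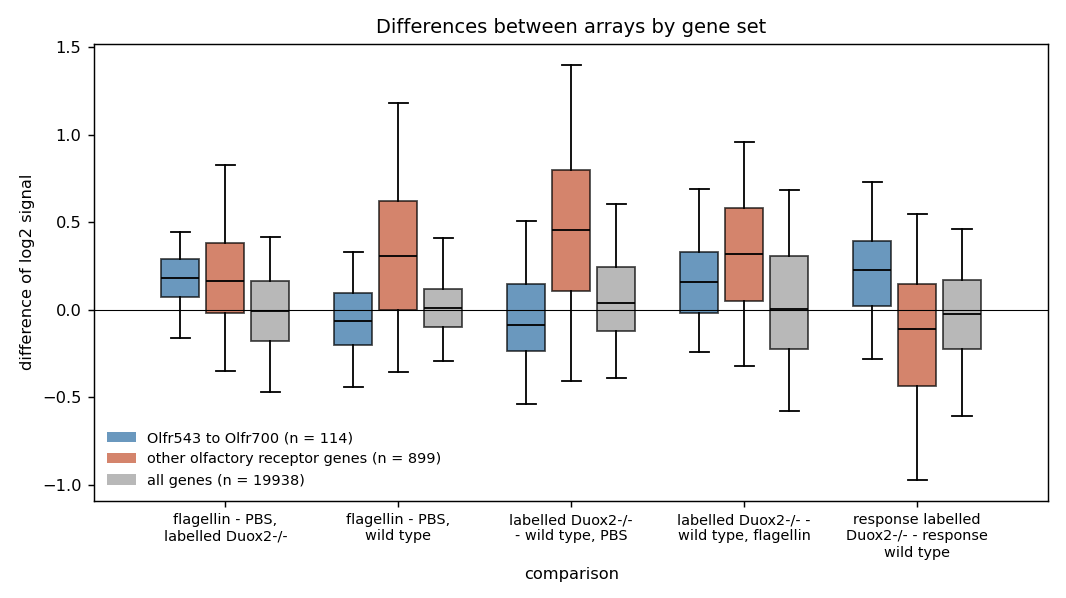
Difference of log2 signal (vertical axis) in 5 comparisons (horizontal axis) for the 114 genes, the other olfactory receptor genes and all genes, with boxes for the quartiles and median and whiskers from the 5th to the 95th percentile. In wild type after flagellin the medians are -0.06, 0.31 and 0.01.

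Signal level moved with these differences, so the sets were also compared within ranges of the 4-array mean. Under 5, the 9 class I genes had median differences of 0.03 for flagellin in wild type and 0.04 for the PBS arrays. Between 5 and 6 the 10 class I genes had -0.01 and 0.24, against 0.04 and 0.25 over all genes. The class I medians were thus below 0 in both comparisons only in the brighter ranges. Between 6 and 7, the 28 genes with class I names had median differences of -0.06 for flagellin in wild type and -0.13 for the PBS arrays, against 0.41 and 0.47 for 233 other receptors and 0.01 and 0.07 for 4261 genes. Between 7 and 8 the 42 class I genes had -0.11 and -0.11, against 0.13 and 0.195 for 107 other receptors. At 8 and over, the 18 class I genes had -0.10 and -0.19, and the 16 other receptors had -0.11 and -0.12, so the brightest receptors of both sets had medians of like size. In mice labelled Duox2-/- the flagellin response of the class I genes lay between 0.12 and 0.21 in all 5 ranges, while that over all genes was 0.09 in the dimmest and -0.13 in the brightest. The bins of 9, 10 and 16 genes are small.

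**Figure D4:**
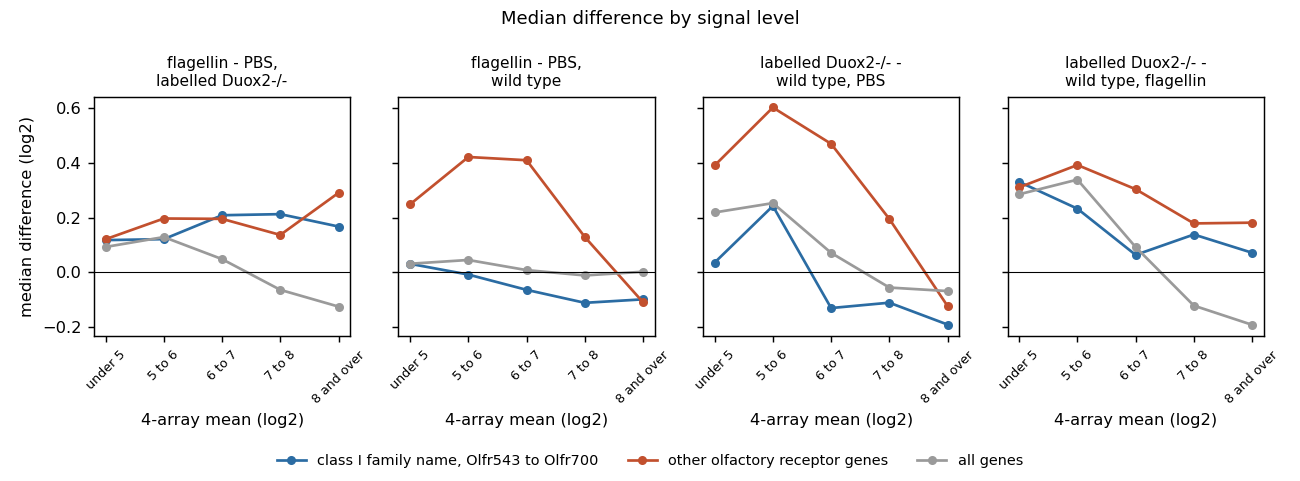
Median log2 difference (vertical axis) by range of the 4-array mean signal (horizontal axis), 1 panel per comparison, for class I genes, other olfactory receptors and all genes. The other receptors lie above the class I genes in wild type after flagellin in every range under 8 and at -0.11, against -0.10, at 8 and over.

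Families followed the common pattern unevenly. Of the 8 families with at least 4 measured genes, MOR13, MOR24, MOR31, MOR32 and MOR34 had medians of -0.23, -0.13, -0.07, -0.13 and -0.16 for flagellin in wild type, and from 0.11 to 0.22 in mice labelled Duox2-/-. MOR8 and MOR14 had 0.07 and 0.15 in wild type and 0.07 and 0.10 in mice labelled Duox2-/-, so both responses were of like sign. MOR40 had 0.02 in wild type and 0.11 in mice labelled Duox2-/-, and under PBS 0 of its 7 genes were higher in the array labelled Duox2-/-. Within MOR32, the largest with 11 genes, 2 were above 0 for flagellin in wild type and 9 in mice labelled Duox2-/-.

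Position along the cluster was compared in the same way. In 5 consecutive stretches of 22 or 23 genes, from Olfr543 to Olfr700, the median flagellin response of mice labelled Duox2-/- ran from 0.13 to 0.19 and that of wild type from -0.10 to -0.01. Under PBS the fourth stretch, Olfr641 to Olfr668, had the lowest median genotype difference, -0.18, with 2 of 23 genes above 0, and the fifth had 0.007 with 12 of 23. The fifth stretch holds the 6 MOR283 genes, all of which were above 0 in both genotype comparisons. After flagellin the medians of the 5 stretches, in order, were 0.078, 0.152, 0.105, 0.109 and 0.283, without a steady rise. These differences along the cluster were not tested.

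**Figure D5:**
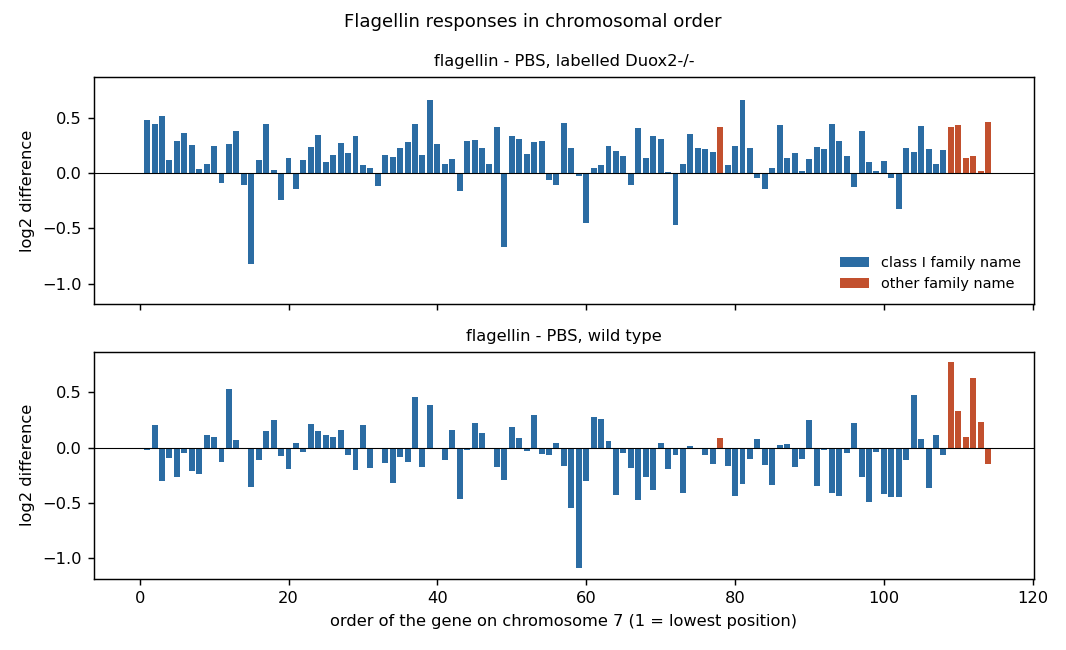
Flagellin minus PBS (log2, vertical axes) of each gene in the order of its position on chromosome 7 (horizontal axis), in mice labelled Duox2-/- above and wild type below. In the deposited scaling bars point up for 95 of 114 genes above and for 43 below, and 5 of the last 6 bars in wild type, all MOR283 genes, point up.

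Shared probe sets, which the choice of genes did not use, had medians of the same sign as the 114 but not always the values of their own genes. For 11 probe sets assigned to several receptor genes, at least 1 of them in the number range, the median difference was 0.20 for flagellin in mice labelled Duox2-/-, with 8 above 0, and -0.20 in wild type, with 3 above 0. The probe set of Olfr620 and Olfr624 had 7.68 and 7.44 in the flagellin and PBS arrays labelled Duox2-/-, and 7.33 and 7.67 in wild type. Its differences were 0.24 for flagellin in mice labelled Duox2-/- and -0.35 in wild type. The probe set of Olfr620 alone, named after its values were seen, had -0.10 and 0.05 in these comparisons, and the dim probe set of Olfr624 alone had -0.03 and -1.09, so the probe sets disagree. The highest wild-type response of the 11, 0.54, was that of the probe set of Olfr694 and Olfr704. Because 11 of the 114 genes also appear on such shared probe sets, signal from near-identical relatives cannot be told apart for them. Outside the number range 9 genes on chromosome 7 have only class I names, among them Olfr64 to Olfr69 beside the beta-globin genes. Their median was close to 0 (-0.0005) for flagellin in mice labelled Duox2-/- and 0.12 in wild type, with 4 and 5 of 9 above 0. For genotype under PBS their median was -0.13 with 3 of 9 above 0. After flagellin the genotype median of the 9 was -0.23 with 2 above 0, against 0.16 for the 114. Their difference of responses had a median of -0.04 with 3 above 0, against 0.23 for the 114. The difference between the 9 and the 114 was not tested.

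Genes of mature olfactory neurons showed that olfactory epithelium was in all 4 samples. Omp, the olfactory marker protein, had 12.16 and 11.85 in the flagellin and PBS arrays labelled Duox2-/-, and 11.99 and 11.94 in wild type. The 19 genes of the fixed list, which also holds the transduction genes Gnal, Adcy3 and Cnga2, had medians of 10.26 and 9.94 in the arrays labelled Duox2-/-, and 10.05 and 9.88 in wild type. All 19 were above 0 for flagellin in mice labelled Duox2-/- (median 0.32) and 17 in wild type (0.11), so the list was higher by more than the 114 receptor genes in both responses. In a bulk sample fewer neurons and less RNA per neuron cannot be told apart. With the arrays set to a common median of this list, the median of the 114 for flagellin in wild type became -0.23, with 19 genes above 0.

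Zone markers were split. Nqo1, a quinone reductase that marks the dorsal zone, had 9.996 and 9.86 in the flagellin and PBS arrays labelled Duox2-/-, and 9.98 and 10.27 in wild type. Acsm4, a further dorsal marker, had 11.80 and 11.55 in the arrays labelled Duox2-/-, and 11.77 and 11.89 in wild type. Both had the wild-type PBS array highest and the PBS array labelled Duox2-/- lowest, and their differences were 0.13 and 0.25 for flagellin in mice labelled Duox2-/-, -0.29 and -0.12 in wild type, and -0.40 and -0.34 for genotype under PBS. Ncam2, a cell adhesion gene of ventral neurons, had 8.28 and 7.98 in the arrays labelled Duox2-/-, and 7.88 and 7.27 in wild type, with differences of 0.30, 0.60 and 0.71 in these comparisons. Nrp2, a guidance receptor of ventral axons, had differences of -0.40, 0.07 and 0.36. The part of zone in the receptor differences was not tested. The trace amine-associated receptors, a further receptor family, were not split by zone. Over 13 genes their medians were 0.20 for flagellin in mice labelled Duox2-/- and -0.14 in wild type. For genotype they were 0.12 under PBS and 0.47 after flagellin.

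Genes that act in receptor choice were followed with the receptors. Over 18 genes of the fixed list, which shares Adcy3, Rtp1 and Rtp2 with the neuron list, the median was 0.21 for flagellin in mice labelled Duox2-/- and 0.07 in wild type, and 0 passed the additive limma test for either factor, which called 0.301% of all genes for flagellin and 9.42% for genotype. Bcl11b, which favours class II choice, had 7.74 and 7.25 in the flagellin and PBS arrays labelled Duox2-/-, and 7.43 and 7.25 in wild type. Lhx2 had 9.001 and 8.71 in the arrays labelled Duox2-/-, and 8.72 and 8.56 in wild type. Both were highest in the flagellin array labelled Duox2-/-, as were 59 of the 114 receptor genes, but the list was mixed. For flagellin in mice labelled Duox2-/- 13 of its 18 genes were above 0. Ldb1 had 9.31 and 9.40 in the flagellin and PBS arrays labelled Duox2-/-, and 9.25 and 9.27 in wild type. Lbr was lowest in the flagellin array labelled Duox2-/-, with 8.12 and 8.68 in the arrays labelled Duox2-/-, and 8.79 and 8.57 in wild type.

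Genes of skeletal muscle and neutrophils differed more between the arrays than the receptor genes did. The 10 skeletal muscle genes had medians of 5.89 and 8.15 in the flagellin and PBS arrays labelled Duox2-/-, and 6.74 and 5.17 in wild type. The 10 neutrophil genes had 6.77 and 6.44 in the arrays labelled Duox2-/-, and 7.31 and 5.65 in wild type. For 8 sustentacular genes, of the supporting cells of the olfactory epithelium, these were 10.02 and 10.03 in the arrays labelled Duox2-/-, and 10.48 and 10.70 in wild type, and for 7 genes of ciliated cells 7.89 and 7.92, against 8.08 and 8.28. Immature neurons (11 genes) had 8.62 and 8.43 in the arrays labelled Duox2-/-, and 8.41 and 8.40 in wild type, progenitors (7 genes) 7.52 and 7.10, against 7.03 and 7.14, and vomeronasal neurons (5 genes) 5.81 and 7.36, against 5.58 and 5.58. Vmn2r1, a vomeronasal receptor with the widest genotype difference under PBS of these 5 genes, had 5.16 and 6.94 in the arrays labelled Duox2-/-. In wild type it had 4.84 and 5.05. The genotype difference under PBS was -0.01 for Gnai2 and 0.05 for Gnao1, of the same list. For flagellin in mice labelled Duox2-/- Gnao1 had 0.30 and was the only 1 of the 5 above 0. The wild-type PBS array had the lowest muscle and neutrophil medians, and the part of these cells in the receptor values was not tested.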

How the data were processed

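Total RNA was labelled with biotin and measured on 4 Affymetrix arrays, 1 per group. The deposited values are log2 signals per probe set, which the authors made with RMA in Affymetrix Expression Console 1.1, per the submitters' processing notes. RMA corrects background, equalises the arrays and summarises probes, which takes out much of a shift shared by most genes. The deposited values still differed in spread. The range between the quartiles of all probe sets was 2.43 and 2.54 in the flagellin and PBS arrays labelled Duox2-/-. It was 2.73 and 2.79 in the wild-type flagellin and PBS arrays, and the array medians ran from 6.48 to 6.56. The genome build of the probe sets was not given in the sources used here. Of 35556 probe sets 21789 had 1 gene, 1621 several and 12146 none in the platform annotation. The brightest probe set stood for each of the 999 genes with several, and no filter on low values was applied.

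Comparisons were differences of log2 values, with a size of 2-fold for counts. The additive model was fitted over all 19938 genes with limma 3.58.1 in R 4.3.3 (prior SD 0.144, prior degrees of freedom 9) with Benjamini-Hochberg adjustment. Its code was checked on simulated data with independent noise of SD 0.144 and no difference of responses. Those data held no difference in spread between arrays, so the check does not give the rate of false calls here. The p-values of the model set an effect against the size of the difference of the responses, largely pooled over all genes. They do not measure a spread between replicate arrays, of which there were none. Other steps used Python 3.11.15 with pandas 2.3.3. Family names, order and start regions came from RefSeq GRCm38.p6, and all 114 genes matched by gene ID.

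Named genes were the 10 brightest, the 5 highest and 5 lowest of each comparison among genes at or above the median signal, genes called by the model and 5 with known uses, 45 in all. The genes and lists were chosen with earlier results of these data known, and the signal ranges, families and chromosomal stretches after the values were seen. Listed genes without a match, among them Cyp2a5, Ugt2a1 and Trpc2, were left out.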

Additional observations from a re-analysis of the deposited data

Results flagged for a closer look

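The flagellin responses of the 114 receptor genes had medians of opposite sign in the 2 genotypes, 0.18 in mice labelled Duox2-/- and -0.06 in wild type, and the median of the difference per gene was 0.23. With the arrays set to a common median of the neuron markers both medians were below 0, -0.14 and -0.23, and the difference was 0.0789. Each response rests on 2 arrays, and the difference was not tested. Of the 45 named genes 13 had responses of opposite sign that both exceeded 0.144, the prior SD of the additive fit, and in all 13 the response was above 0 in mice labelled Duox2-/- and below 0 in wild type. The difference was 0.99 for Olfr655, 0.88 for Olfr639, 0.86 for Olfr670, 0.82 for Olfr545, 0.77 for Olfr623 and 0.73 for Olfr671. It was 0.68 for Olfr654, 0.63 for Olfr633, 0.62 for Olfr622, 0.59 for Olfr610, 0.58 for Olfr690, 0.55 for Olfr549 and 0.46 for Olfr592. Several of these genes were named for a wide difference, so their sizes are a description, and none of the differences was tested. Of all 114 genes 22 had such opposite responses (19.3%, against 10.9% of the other olfactory receptors and 10.1% of all genes), and 4 with the neuron marker scaling (3.51%, against 6.03% of all genes).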

How the results depend on the processing

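Of 137 recomputed values 105 stayed in place, that is, kept the sign and moved by less than 0.144 or stayed within 1.5 times the count. This tally is no measure of robustness. Averaging the probe sets of a gene could alter the signals of only 1 of the 114 genes. Using only class I names kept 107 of the 114, and many counts were 0 in both settings. The limit of 0.144 also exceeds the size of some main medians. Under PBS the median genotype difference counted as in place although it went from -0.08 to -0.17 after median centring. Setting the arrays to a common median of the mature olfactory neuron markers shifted the median of all genes by up to 0.32. It turned the sign of the median flagellin response in mice labelled Duox2-/- (-0.14) and of the genotype difference after flagellin (-0.0498), and moved the wild-type response to -0.23 and the difference of responses to 0.0789. Counts of genes past 2-fold moved by at most 2 with the scaling or the filter. With that marker scaling 1 gene was lower for flagellin in mice labelled Duox2-/-, 2 were lower and 0 higher for genotype after flagellin, and 0 were higher for the difference of responses. For genotype after flagellin 0 genes were higher after median centring, quantile renormalisation, cyclic loess or the filter at the median signal, and 1 was lower after quantile renormalisation and after cyclic loess. For the difference of responses 2 genes were higher after median centring, quantile renormalisation and cyclic loess, and 0 with the filter, which also left 0 lower for flagellin in wild type. At 1.5-fold, 2 genes were higher and 2 lower for flagellin in mice labelled Duox2-/-, 2 higher in wild type, 2 higher and 5 lower for genotype under PBS, 10 higher and 3 lower after flagellin, and 15 higher for the difference of responses. The 11 genotype calls of the additive model became 6 after median centring, 2 after quantile renormalisation, 5 with the filter, and 0 after cyclic loess and after the marker scaling. Over all genes the model called 1879 for genotype, 907 after median centring, 365 after quantile renormalisation, 28 after cyclic loess, 25 after the marker scaling and 483 with the filter. For flagellin it called 60 genes, 1 after cyclic loess, 1 after the marker scaling and 23 with the filter. No paired analysis was possible because each group has 1 array. The alternative that leaves out near-identical proteins was not run, since no protein sequences were used here. With 1 array per group no difference is separated from variation between animals or arrays, and the 36 genes under the median signal carry less information.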
